A study of Mus musculus with 5 samples.

Results

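The ribosomal DNA repeat Rn45s was examined as the CpGs of mm9 chromosome 17 from 39970000 to 39995000, the window that holds the one assembled copy of the 45S ribosomal RNA unit in that build. The second count of a CpG, inferred from the deposited values as given below, was used as its read depth. Methylated counts exceed it at highly methylated tiles of most libraries, so it is not simply a count of all reads. A CpG was kept where its second count was at least 10 in all 5 libraries. This left 535 of 591 CpGs listed in the window, and 535 of 1780536 autosomal CpGs that passed the same limit. The study measured DNA methylation by reduced representation bisulfite sequencing, in which MspI cuts the genome and bisulfite converts unmethylated cytosines. It comprised 1 wild-type mouse library (WT), 2 libraries from mice with a dominant negative H3.3 at lysine 36 (K36M) and 2 from mice expressing one altered at lysine 9 (K9M), likewise labelled dominant negative. H3.3 is the histone H3 variant that is placed on chromatin outside replication, and in both mutants methionine stands in for a lysine that can be methylated. Both mutants were induced with 2 mg/ml doxycycline in the drinking water, and the labels name no doxycycline for WT, so mutation and drug cannot be told apart against WT. The cells are named HSCs, hematopoietic stem cells per the series title, by the source name, but the growth protocol has them sorted from peripheral blood. Neither can be checked here, since the files hold no expression value. No source used here gives the promoter that drives the mutant histones, or the age or strain of the mice. Whether replicates came from separate mice is not labelled either, and the p-values therefore cover the spread among these libraries alone, which may be technical.

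Ribosomal DNA encodes the 45S precursor that RNA polymerase I transcribes and that is cut into the 18S, 5.8S and 28S ribosomal RNAs. Mammalian genomes carry many near-identical copies in tandem arrays, of which a part is silent and methylated at CpGs and a part is active and unmethylated. A reference genome holds at most a few of these copies, so reads from all of them gather on the assembled one. A level measured there is therefore an average over copies and over cells, and a changed level per copy cannot be told apart from a changed number of methylated or unmethylated copies. Histone H3 lysine 9 methylation is a known mark of silent ribosomal DNA copies, and H3 lysine 36 methylation is known from transcribed gene bodies.

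Levels are given as a relative level. In 4 libraries the deposited fraction was read as methylated counts over the sum of methylated and second counts, and in K9M replicate 2 as methylated counts over the second count alone. This reading was inferred from the values and the cause of the difference between files was not tested. Products of fraction and total were whole within 0.01 at 100% of window CpGs in the 4 libraries, but at 21.5% in K9M replicate 2. A fraction of whole counts over its total would give whole products. The reading thus does not account for the file of K9M replicate 2, and its methylated counts are rounded values. The ratio of methylated to second counts was divided by the ratio at highly methylated tiles of the same library, called the plateau, and expressed in percent. The plateau ratio lay between 1.22 and 1.37 in the 4 libraries and at 0.954 in K9M replicate 2. K9M replicate 2 thus stands apart in the unit of its file, and the level and the share of counts are also given without it. The sum of deposited totals ran from 111738339 to 174743796 per library.

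The window held a dense, deep and low-methylated block between methylated flanks in which few CpGs passed the count limit. The block, taken as the longest run of CpGs with no gap over 300 bases, ran from 39979959 to 39985767, a span of 5809 bases with 526 CpGs or 9.05 CpGs per 100 bases. The median second count per block CpG came to 4520 for WT, to 3644 and 4146 for K36M replicates 1 and 2, and to 3448 and 3526 for K9M replicates 1 and 2. Pairs of values below keep that order of replicates. The autosomal medians were 43, 35, 42, 34 and 44 in the same order, so the block was 80.1 to 105 times deeper than the typical CpG. Its 6 tiles of 1 kb from 39980001 to 39986000 held 58 to 121 CpGs each, and their depth was 67.7 to 136 times the median tile. The 4 CpGs before the block, at 39978745 to 39979510, had a relative level of 83.9% for WT, 88.9% and 97.2% for K36M, and 96.1% and 97.9% for K9M. The 5 CpGs after it, at 39990947 to 39991081, had 71.9% for WT, 68.7% and 71.5% for K36M, and 71.0% and 94.7% for K9M. The flanks are thinly covered, and the 95% counting interval of the WT value before the block runs from 67.5% to 104%. The flanking CpGs thus reached 68.7% or more of the plateau in every library, while the block, as given below, was at 20.3% or less. No gene table of the mm9 build was used here, so CpGs were not assigned to spacers or to the ribosomal RNA genes within the unit.

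**Figure D1:**
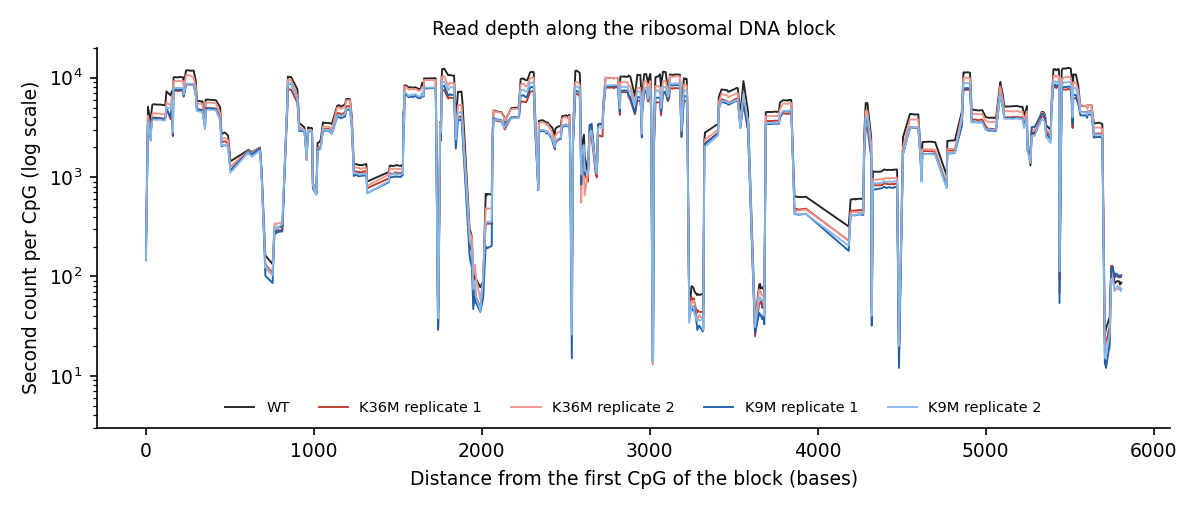
Second count per CpG (log axis) against the distance from the first CpG of the block in bases, with 1 line per library. The 5 lines run together over the block, with peaks of 8536 to 12576 and short dips at like places in every library.

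Depth along the block had the same shape in all libraries. The lowest second count of a block CpG was 12 to 17 and the highest 8536 to 12576, depending on the library. Among the 421 block CpGs with a second count of 1000 or more in every library, Spearman's rank correlation of the second count between pairs of libraries lay between 0.957 and 0.995. These are correlations across CpGs that share reads, given as a description. The dips and peaks thus sat at the same CpGs in each genotype.

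Methylation of the ribosomal DNA was low in every library, and the libraries differed from each other more within a mutant group than between groups. The pooled relative level of the 535 CpGs was 14.3% in WT, 19.7% in K36M replicate 1, 11.6% in K36M replicate 2, 20.3% in K9M replicate 1 and 7.78% in K9M replicate 2. Each mutant group had its replicate 1 above WT and its replicate 2 below WT, so the groups overlapped. The K36M pair averaged 15.6% ± 5.76 (SD, n = 2), and the K9M pair averaged 14.0% ± 8.84 (SD, n = 2). By these means K36M exceeded WT by 1.31 points, and K9M minus WT was -0.296 points, both smaller than the spread between replicates. The difference of K36M from K9M, 1.60 points, gave p = 1 in an exact permutation test, two-sided, in which 2 libraries against 2 cannot go below 0.33. Its direction rested on single libraries: it was -2.47 points without K36M replicate 1, 5.68 without K36M replicate 2, 7.86 without K9M replicate 1 and -4.65 without K9M replicate 2. Without K36M replicate 1, K36M minus WT was -2.76 points, and without K9M replicate 2, K9M lay above WT by 5.96 points. The direction between K36M and K9M, and of each mutant against WT, therefore turned when single libraries were left out.

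Counting error was small beside these differences. The 95% counting interval (exact Clopper-Pearson, converted to the relative level) was 14.3% to 14.4% in WT, 19.6% to 19.8% in K36M replicate 1, 11.5% to 11.6% in K36M replicate 2, 20.2% to 20.3% in K9M replicate 1 and 7.74% to 7.82% in K9M replicate 2. Such intervals treat methylated and second counts as the outcomes of a binomial, which is a choice of model. They cover counting error only, since reads made by PCR are not independent molecules. The order of the libraries was the same without the plateau, though the deposited level of K9M replicate 2 is in another unit. Levels as deposited, pooled over the window, were 15.0% for WT, 19.3% and 12.7% for K36M, and 21.8% and 7.42% for K9M. The K36M replicates stood 8.15 points apart and the K9M replicates 12.5 points on the relative scale. These gaps between replicates of 1 genotype exceeded the differences between genotype means.

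No part of the ribosomal DNA window passed the tests across the whole table. The logistic model moderated with limma, fitted to 152678 autosomal tiles of 1 kb and all 5 libraries, called 0 of the 9 window tiles in each of the 3 comparisons, at an adjusted p under 0.05 and 10 points or more. Over all tiles it called 0.476% lower and 0.0144% higher for K36M against WT, 0.0275% and 0.0504% for K9M against WT, and 1.22% and 0.0701% for K36M against K9M. A count of 0 among 9 tiles is near these shares and is no result about ribosomal DNA. The adjusted p was 1 for all window tiles, and 0 of 9 had an unadjusted p under 0.05 in any comparison, beside 5.26%, 2.9% and 7.44% of all tiles in the order above. limma on relative levels also called 0 of the 9, where it called 0.168% of all tiles lower and 0.00327% higher for K36M against WT, 0.019% and 0.0262% for K9M against WT, and 0.707% and 0.0295% for K36M against K9M. It had 0 of the 9 at an unadjusted p under 0.05, beside 6.81%, 4.48% and 10.7% of all tiles. In the 7 tiles that hold block CpGs, group differences ran from -0.0106 to 2.16 points for K36M against WT, from -1.24 to 0.398 points for K9M against WT and from 1.17 to 2.47 points for K36M against K9M. The tile from 39982001 to 39983000, with 121 CpGs, read 14.1% for WT, 20.5% and 11.2% for K36M, and 20.7% and 7.47% for K9M. The tile from 39984001 to 39985000, with 58 CpGs, read 16.5% for WT, 19.5% and 13.5% for K36M, and 21.6% and 9.07% for K9M. Both have the order of libraries of the whole window, as do 5 of the 9 window tiles. In the tiles from 39979001 to 39980000 and from 39980001 to 39981000 K36M replicate 1 was slightly above K9M replicate 1, at 21.8% against 21.7% and at 18.8% against 18.6%, and the 2 flanking tiles had other orders.

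The replicate spread in these tiles was among the largest of all tiles. The dispersion, the spread between replicates relative to binomial counting error, was 388 to 25758 in the 7 block tiles. Its median over all 152678 tiles was 0.518, and 24 tiles outside the window reached 388. No tile outside reached 25758. For a fixed gap between replicates the dispersion scales with the counts summed in a tile, and these tiles were 62.5 to 136 times deeper than the median.

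Single CpGs gave no call either. The same model over 1780536 CpGs called 0 of the 535 window CpGs in each comparison, where it called 0 CpGs in the whole table. At an unadjusted p under 0.05 there were 0 window CpGs for K36M against WT, 2 for K9M against WT and 0 for K36M against K9M, beside 0.18%, 0.0643% and 0.403% of all CpGs. limma on relative levels also called 0 window CpGs. Over all CpGs it called 0.0536% lower and 0.00315% higher for K36M against WT, 0.0348% and 0.0113% for K9M against WT, and 0 for K36M against K9M. Its window CpGs at an unadjusted p under 0.05 numbered 1, 1 and 0, beside 8.61%, 7.45% and 8.03% of all CpGs. The K36M libraries both lay below both K9M libraries at 9 of the 526 block CpGs and both above them at 9, which is 1.71% each. Over all CpGs these shares were 16.7% and 9.83%. The remaining 508 block CpGs had overlapping groups. Against WT, both K36M libraries were lower at 22 and higher at 78 block CpGs, beside 28.8% and 18.7% of all CpGs, and both K9M libraries were lower at 28 and higher at 40, beside 24.2% and 23.5%. In most block CpGs the WT value lay between the replicates of each mutant.

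The gap between replicates ran through the whole block. K9M replicate 1 was above K9M replicate 2 at 526 of 526 block CpGs, with a median ratio of 2.59 and a 5th to 95th percentile range of 1.70 to 4.18. One CpG without methylated counts in K9M replicate 2 was left out of that ratio, leaving 525. Levels of K9M replicate 2 rest on a reading of the counts that does not account for its file, and block CpGs share reads. K36M replicate 1 was above K36M replicate 2 at 490 of 526 CpGs, with a median ratio of 1.69 and a range of 0.897 to 3.20. The library order of the whole window, K9M replicate 2, K36M replicate 2, WT, K36M replicate 1 and K9M replicate 1 from low to high, was found at 248 block CpGs (47.1%). At 150 more the last pair was swapped. K9M replicate 2 was the lowest library at 476 block CpGs.

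**Figure D2:**
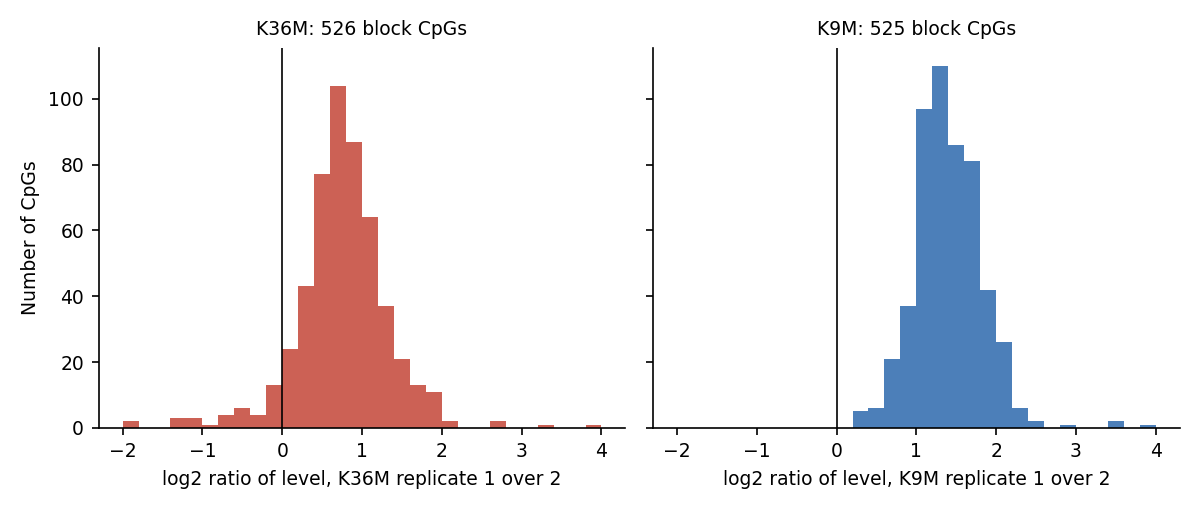
Number of block CpGs (vertical axis) by the log2 ratio of relative level between replicate 1 and replicate 2 (horizontal axis, values beyond the axis drawn in the outermost bars) for K36M and K9M. The K9M bars lie above 0 throughout, and 490 of 526 K36M ratios are above 0.

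The shape of methylation along the block was shared between libraries. Among the 421 well-covered CpGs the SD of levels came to 6.25 points for WT, 6.90 and 5.50 for K36M, and 5.98 and 3.45 for K9M. Spearman's rank correlation of CpG levels between pairs of libraries lay between 0.797 and 0.957, across CpGs that share reads and with no test. Within a library, level and second count were weakly correlated over these CpGs, at 0.126 to 0.290. In 12 bins of 500 bases counted from the first block CpG, levels ran from 10.8% to 18.3% in WT, from 15.4% to 22.1% and from 9.19% to 16.7% in K36M replicates 1 and 2, and from 15.4% to 22.8% and from 6.18% to 11.6% in K9M replicates 1 and 2. The bin with the lowest mean over the libraries, 39980459 to 39980958, read 10.8% for WT, 15.4% and 9.19% for K36M, and 15.4% and 6.41% for K9M. The highest, 39983959 to 39984458, read 18.3% for WT, 19.3% and 16.7% for K36M, and 21.7% and 11.6% for K9M. That bin had the lowest mean second count of the 12, at 1186, and the smallest ratio between replicates 1 and 2, at 1.15 in K36M and 1.87 in K9M. Over the 12 bins the ratio reached 1.97 in K36M and 2.96 in K9M, and no bin had replicate 2 above replicate 1.

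**Figure D3:**
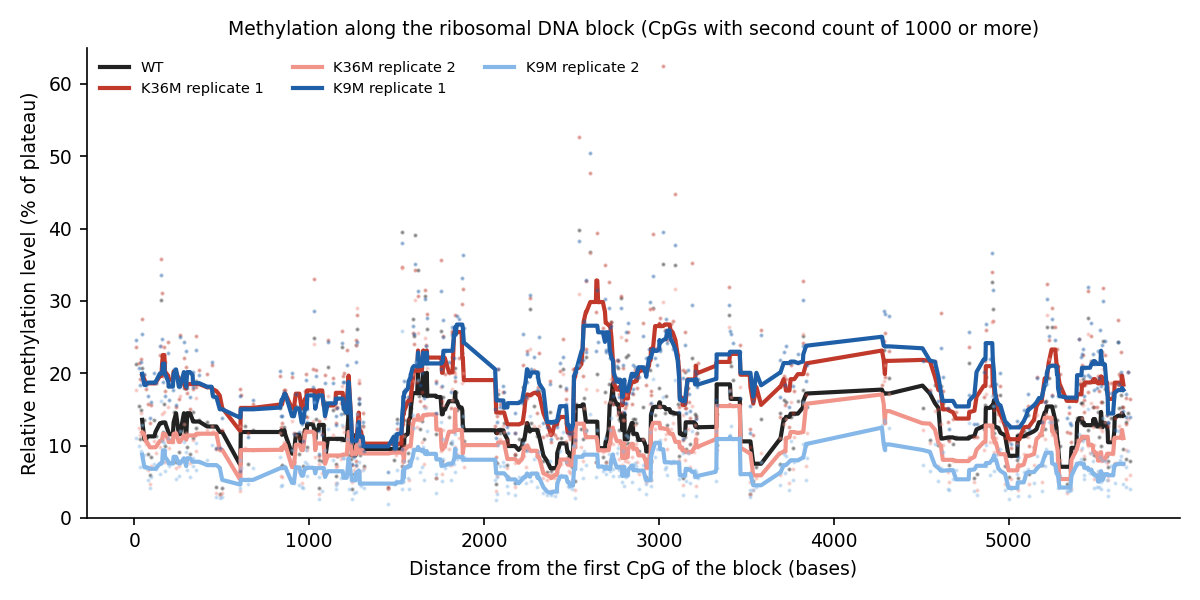
Relative level in percent of the plateau (vertical axis) against the distance from the first CpG of the block in bases, for the 421 CpGs with a second count of 1000 or more in every library. Points are CpGs and lines are running medians over 9 CpGs. K36M replicate 1 and K9M replicate 1 run highest, K9M replicate 2 lowest, and the rises and dips fall at like places.

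Single CpGs of the block differed up to several-fold from each other. The 3 highest of the 421 well-covered CpGs lay within 500 bases of each other. The CpG at 39982567 read 36.8% for WT, 47.7% and 36.6% for K36M, and 50.5% and 14.3% for K9M. At 39982984 the values were 35.1% for WT, 62.5% and 29.9% for K36M, and 39.6% and 16.7% for K9M. At 39982502 WT had 39.8%, K36M 52.6% and 30.9%, and K9M 38.2% and 21.1%. K9M replicate 2 was lowest at all 3. The thin CpGs just before 39982984 and 39982502, at 39982979 and 39982495, read 971% and 291% in K36M replicate 1. Such values cannot be read as levels, and whether the same excess enters their well-covered neighbours was not tested. The lowest well-covered CpG, at 39981411, read 4.16% for WT, 4.28% and 3.95% for K36M, and 6.34% and 1.87% for K9M. The next, at 39981205 and 39980566, had means over the libraries of 5.26% and 5.45%. Among all block CpGs the lowest mean was at 39984183, which read 2.45% for WT, 4.83% and 2.68% for K36M, and 6.93% and 2.27% for K9M. The CpG at 39981411 came next, and then 39980726 with a mean of 4.54%. Each had methylated counts in every library, and no bisulfite conversion rate was used here to set them apart from unconverted cytosines. The 3 deepest CpGs, at 39980198, 39985374 and 39985390, had mean second counts of 9672, 9700 and 9744. The deepest, at 39985390, read 11.1% for WT, 16.3% and 8.53% for K36M, and 19.6% and 5.97% for K9M, in the order seen over the window.

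The highest values by the same ranking came from thin CpGs and cannot be read as levels. At 12 block CpGs, all with a second count under 100 in some library, the relative level passed 100% in at least 1 library. This happened at 12 CpGs in K36M replicate 1, 7 in K9M replicate 1, 3 in WT, 3 in K36M replicate 2 and 0 in K9M replicate 2. At 39985676 K36M replicate 1 had 497 methylated counts beside a second count of 21, while WT had 49 beside 30, K36M replicate 2 had 27 beside 21, K9M replicate 1 had 21 beside 12 and K9M replicate 2 had 5 beside 16. The same excess in K36M replicate 1 was seen at 39985669, with 307 methylated counts beside 21, and at 39982979, with 366 beside 31. By the rule for non-overlapping groups, 39982979, 39982976 and 39985698 had the largest differences of K36M from WT, and 39982979 also the largest from K9M. At 39982976 K36M replicate 1 had 289 methylated counts beside 28, and at 39985698 it had 128 beside 32. The cause of the excess in K36M replicate 1 was not tested. Without the 48 block CpGs under 100 in any library the pooled block level came to 14.3% for WT, 19.6% and 11.5% for K36M, and 20.2% and 7.75% for K9M.

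The largest non-overlapping differences of K9M, again on few counts, went in both directions. At 39985676, described above, both K9M libraries were below WT, at 127% and 32.7% against 132%. At the other 3 CpGs both K9M libraries were high, and WT and K36M replicate 1 low. At 39985399 the levels were 5.17% in WT, 2.42% in K36M replicate 1, 39.7% in K36M replicate 2, 82.3% in K9M replicate 1 and 35.2% in K9M replicate 2, on second counts of 54 to 113. At 39981908 they were 8.19%, 12.1%, 28.0%, 62.0% and 34.0%, on second counts of 47 to 102, and at 39981967 they were 11.8%, 13.6%, 33.4%, 63.3% and 34.9%. The K36M replicates split at all 3, with replicate 2 near K9M replicate 2. The adjusted p by the logistic model moderated with limma was 1 at each. That model called 0 CpGs in the whole table, so this is no result about these 3.

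Both replicates 2 were also the lowest libraries in most other deep, low-methylated tiles. Outside the window, 47 tiles on 17 autosomes had a second count per CpG of at least 10 times the median and a mean level under 40%, a limit chosen after the levels were seen. Their sequence was not compared with ribosomal DNA. Whether they take reads from it was not tested, so they cannot be counted as loci independent of the window. Their median level came to 17.0% for WT, 19.9% and 13.3% for K36M, and 21.0% and 8.83% for K9M. The 1600 tiles outside the window with 20 or more CpGs, a mean level of 5% to 25% and a depth under 10 times the median had medians of 8.37% for WT, 8.51% and 7.88% for K36M, and 8.29% and 8.13% for K9M. The gaps between replicates were thus wide in the former and narrow in the latter. K9M replicate 1 was above replicate 2 in 41 of the 47 deep tiles, with a median ratio of 2.22, and in 856 of the 1600, with a median ratio of 1.01. For K36M the counts were 41 of 47, with a median ratio of 1.51, and 1078 of 1600, with a median ratio of 1.10. Both mutant replicates 2 were the lowest pair in 35 of the 47 (74.5%) and in 180 of the 1600 (11.3%), beside 7 of the 9 window tiles (77.8%). By single CpGs of the block, an unlike unit, it was 431 of 526 (81.9%). The full order of the window was found in 14 of the 47 (29.8%), in 20 of the 1600 (1.25%) and in 5 of the 9 window tiles (55.6%). As given above, it was found in 47.1% of block CpGs, which share reads. In 68 deep tiles outside the window at 40% or more, the pair was lowest in 7. All of these are counts within the same 5 libraries, given as a description with no test. Depth, level and library order moved together here, and the part of read depth in the library order was not tested. The tile on chromosome 11 from 108873001 to 108874000, with 30 CpGs at 142 times the median depth, read 15.0% for WT, 23.7% and 11.0% for K36M, and 22.3% and 7.22% for K9M. The tile on chromosome 6 that starts at 3151001 and ends at 3152000 read 18.4% for WT, 21.9% and 14.9% for K36M, and 23.0% and 9.58% for K9M. Both were named after their values were seen, as the 2 deepest of the 47 with 20 or more CpGs.

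**Figure D4:**
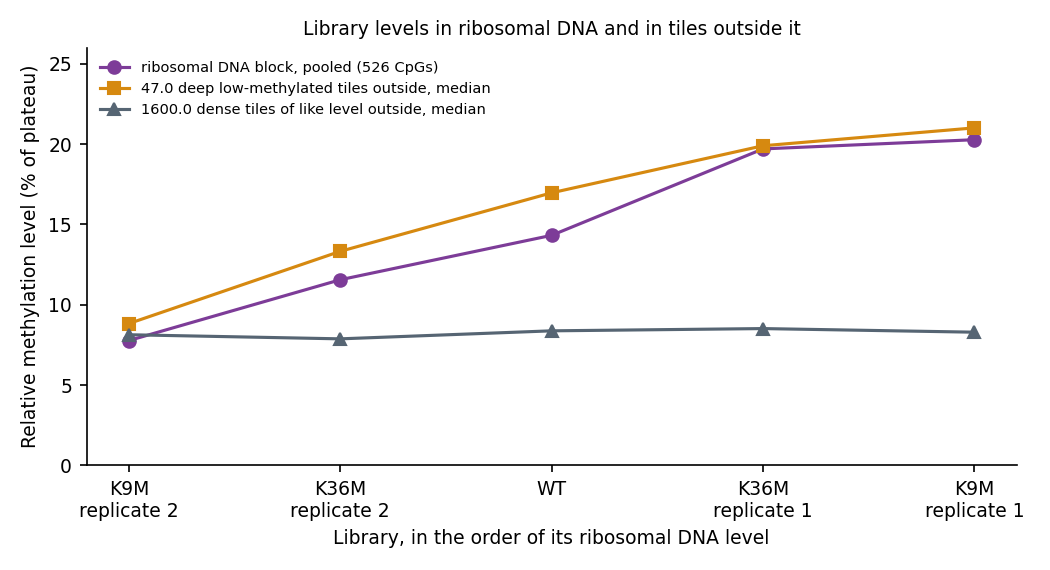
Relative level in percent of the plateau (vertical axis) in the 5 libraries (horizontal axis, ordered by their ribosomal DNA level). Lines are the pooled block CpGs, the median of 47 deep low-methylated tiles and the median of 1600 dense tiles at 5% to 25%. The 1600, labelled as of like level, lie lower than the block in every library but K9M replicate 2. The first 2 lines rise from 7.77% and 8.83% in K9M replicate 2 to 20.3% and 21.0% in K9M replicate 1, while the last stays between 7.88% and 8.51%.

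The share of a library's counts that fell on ribosomal DNA was alike in WT, K36M and K9M replicate 1 and lower in K9M replicate 2, but this rested on the reading of the counts. The window took 2.73% of autosomal second counts in WT, 2.55% in both K36M libraries, 2.59% in K9M replicate 1 and 2.11% in K9M replicate 2. K36M averaged 2.55% ± 0.000295 (SD, n = 2) against 2.35% ± 0.337 (SD, n = 2) for K9M. The exact permutation test, two-sided, gave p = 1, with 0.33 the smallest p it allows. With deposited totals in place of second counts, the shares came to 2.11% for WT, 2.10% and 1.92% for K36M, and 2.09% and 2.11% for K9M, and K9M replicate 2 no longer stood apart. By the reading used, its total is the second count alone, while totals of the other libraries also hold methylated counts. The shares on deposited totals are thus of unlike sums. K36M minus K9M was 0.201 points on second counts, -0.0915 points on deposited totals and -0.0373 points without K9M replicate 2. Fewer copies and fewer reads per copy cannot be told apart in such a share.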

How the data were processed

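Per the submitters' processing notes, cutadapt, BSMAP and the mm9 build were used; settings, versions and deduplication are not given in the sources used here. For each CpG the authors deposited its methylation as a fraction, beside a total count. Positions are mm9, counted from 1. The methylated count is the rounded product of level and total, whole within 0.01 for 100% of window CpGs in 4 libraries while 21.5% were whole in the file of K9M replicate 2. The second count is the total minus the methylated count, or the total itself in K9M replicate 2, a reading inferred from the values in earlier work on these data. Tiles were ranked by this ratio in each library, and the plateau is the median over the top 20% by mean rank. This scale cannot show a shift shared by a whole library.

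Tiles of 1 kb with at least 3 CpGs, and single CpGs, were fitted with a logistic model in 5 libraries (2 residual degrees of freedom, given by the K36M and K9M replicates, whose spread is assumed to hold for WT too). The dispersion was moderated with limma 3.58.1 in R 4.3.3 and held at or above 1, with an F test and Benjamini-Hochberg adjustment over all features. On simulated data for 152678 tiles, the fit recovered 100% of changes to 0.2 times the level both for K36M against K9M and for K36M against WT. Of changes to 0.5 times it recovered 87% for K36M against K9M and 71% for K36M against WT, and it called 0 unchanged tiles in both. The simulation used a smaller replicate spread than the ribosomal DNA tiles have, and its changed tiles were more highly methylated than those. At the WT level of the block, 14.3%, a change to 0.5 times would stay under the 10 points needed for a call. The recovered shares therefore do not hold for the ribosomal DNA tiles.

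The window, lists and tests were chosen with earlier results of these data known. All 9 window tiles were accounted for. CpGs named were the 3 highest, lowest and deepest, and the 3 largest differences among CpGs whose groups did not overlap; the ranks among CpGs with a second count of 1000 or more, the block and the limits of the deep tiles were chosen after seeing the data. The promoter stretch and the RNA polymerase I gene list were not analysed here, since no table of the files' build was at hand.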

Additional observations from a re-analysis of the deposited data

How the results depend on the processing

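Of the alternatives tried on the window level, coverage minimums of 5 and 20, the plateau from the top 40% of tiles, deposited levels, block CpGs only, block CpGs of 100 or more counts, and medians of CpG levels kept K36M minus K9M between 1.17 and 1.92 points. The mean of CpG levels gave 7.32 points for it and moved K36M minus WT to 8.57 points. It weights each CpG alike, including thin ones that reached 1947% in K36M replicate 1. For K9M minus WT, the mean and the median of CpG levels gave 1.25 and 0.682 points, against -0.296. Leaving out 1 mutant library gave -4.65 to 7.86 points for K36M minus K9M, with -2.47 without K36M replicate 1 and -4.65 without K9M replicate 2. It gave -2.76 to 5.38 points for K36M minus WT and -6.55 to 5.96 points for K9M minus WT. The share of counts, K36M minus K9M, was 0.201 points. It was -0.0915 points with deposited totals, and -0.0373 to 0.44 points without 1 mutant library, negative without K9M replicate 2. Calls of window tiles and window CpGs stayed at 0 in all 3 comparisons under every alternative run. No logistic CpG fit called any CpG in the whole table. Over all tiles the most calls were 1613 lower and 90 higher of 184414, for K36M against K9M at a coverage minimum of 5. In the main fit, block tiles differed by at most 2.47 points, under the 10 needed for a call. These counts of 0 are therefore no result about ribosomal DNA. Without K9M replicate 1, 7 of 9 window tiles had an unadjusted p under 0.05 for K36M against K9M (smallest adjusted p of 0.514, logistic model moderated with limma), and 4 of 9 for K9M against WT, beside 5.25% and 1.96% of all tiles.

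With a replicate block, the window level differed by 1.60 points (exact sign-flip permutation p of 1, where 2 pairs cannot go below 0.5). The tile fit with the block called 0 tiles in the whole table, in place of 726 lower and 22 higher for K36M against WT, 42 and 77 for K9M against WT and 1870 and 107 for K36M against K9M. It had 1 residual degree of freedom. It gave 5, 2 and 0 window tiles at an unadjusted p under 0.05 for K36M against WT, K9M against WT and K36M against K9M, beside 3.48%, 1.67% and 5.32% of all tiles. Window CpGs at that threshold numbered 23, 16 and 1 of 535, beside 0.00798%, 0.0055% and 0.0409% of all CpGs. The labels say nothing of what a replicate number shares. Differences between replicates 1 and 2 of K36M and of K9M correlated across tiles outside the window at 0.0772, and across the 421 well-covered block CpGs at 0.710. The former is over tiles, and the latter over CpGs of 1 locus that share reads and a profile of levels. Both are descriptions with no test and cannot tell what replicate numbers share. The promoter stretch was not run.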

Other observations

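Of the 591 CpGs listed in the window in any library, 56 did not reach a second count of 10 in every library, and 40 of these lay inside the span of the block. The tile of lowest depth in the window, from 39990001 to 39991000, had 3 CpGs and read 76.0% for WT, 68.6% and 74.2% for K36M, and 75.8% and 102% for K9M. A value over 100% is possible on the plateau scale.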
